A study of Mus musculus with 2 samples.

Results

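The let-7 and miR-98 family was compared between G2N2C cells in which D3 was interfered with and control cells. G2N2C is a mouse line of basal cell carcinoma (BCC), and D3 is the deiodinase made from Dio3, which inactivates thyroid hormone. The members were chosen by name, not by their values: every mouse probe of the authors' table named for mmu-let-7a to mmu-let-7g, mmu-let-7i or mmu-miR-98, for either arm of the hairpin. This gave 13 miRNAs of the 419 mouse miRNAs on the array, 9 main arms and 4 star arms (the strand of the hairpin that is usually degraded). All 13 were among the 373 mouse miRNAs that carry a fold change in the authors' table.

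The cells were grown in low calcium with keratinocyte growth factor and 8% fetal serum from which calcium had been chelated. They were transfected with the Stealth-D3 oligo or with Stealth-ctr, and total RNA was taken after 48 h. For each condition the RNA of 3 experiments was combined into a pool, and the same pair of pools was put on 2 two-colour arrays with the dyes exchanged, Stealth-D3 in Cy3 on the first and in Cy5 on the second. There is thus 1 replicate per condition, from 1 cell line. SDs are technical, over both arrays, no p-value between the conditions can be had, and precision is limited by having only these arrays. How far Dio3 itself was lowered was not analysed here.

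The let-7 miRNAs are among the most conserved miRNAs of animals. They accumulate as cells differentiate and repress growth and stem cell genes such as Ras genes, Myc, Hmga2 and Lin28, and the Lin28 proteins in turn block the maturation of let-7 precursors. A target is recognised mainly through the seed, bases 2 to 8 from the 5′ end, so members with the same seed can repress the same transcripts. miR-98 has a let-7 seed under another name.

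Mature sequences of RefSeq (GRCm38.p6) were matched to all 13 members by name. The 9 main arms are shown because their likeness decides how far the probes can tell them apart; capitals mark the seed.
let-7a: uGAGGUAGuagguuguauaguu
let-7b: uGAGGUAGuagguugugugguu
let-7c: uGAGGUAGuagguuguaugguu
let-7d: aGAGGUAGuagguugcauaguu
let-7e: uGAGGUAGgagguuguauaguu
let-7f: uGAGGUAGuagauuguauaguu
let-7g: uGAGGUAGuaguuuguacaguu
let-7i: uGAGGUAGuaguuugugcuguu
miR-98: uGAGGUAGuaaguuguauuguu
All 9 are 22 bases long and share the seed GAGGUAG. Pairs of them differ at 1 to 6 bases, which is an identity of 95.5% to 72.7%. Counted from the 5′ end, with the base of let-7a first, let-7c differs from let-7a by A19G, let-7e by U9G and let-7f by G12A alone. let-7b differs by A17G and A19G, let-7d by U1A and U16C, let-7g by G12U and U18C, and miR-98 by G11A and A19U. let-7i is farthest from let-7a, with G12U, A17G, U18C and A19U. A probe for one member may therefore also bind another, and the part of such binding in the values was not tested. The RefSeq table holds the same seed in miR-1961 and let-7k as well, neither of which is named among the mouse probes analysed here.

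The 4 star arms have other seeds, each of its own, and are shown because they come from the other strand of the hairpin.
let-7a*/let-7c-2*: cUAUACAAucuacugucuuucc
let-7d*: cUAUACGAccugcugccuuucu
let-7g*: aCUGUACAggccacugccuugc
let-7i*: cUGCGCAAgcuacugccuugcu
The probe for let-7a* and let-7c-2* has a joint name, and the RefSeq arms let-7a-1-3p and let-7c-2-3p have an identical sequence.

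The values are log2 ratios between the pools. Which dye stands in the numerator is not stated in the sources used here, so the sign was set by miR-21, the mouse miRNA farthest from 0, with a mean of 3.60 ± 0.73 (technical SD, 2 arrays). A positive value lies on the side of miR-21 and a negative value on the opposite side, and no direction after interference is given. If the ratios are Cy5 over Cy3, a positive value is a higher level in the Stealth-D3 pool; if Cy3 over Cy5, a higher level in the Stealth-ctr pool. The first array was turned so that both run the same way. Across all 2101 probes of the authors' table the turned ratios followed probe brightness, with r = -0.51 and 0.57 for the first and second array, a description across probes. A second set of values therefore has a smooth trend on average intensity removed from each array. The keratinocyte markers miR-205, miR-141, miR-200c and miR-203, fixed for this cell type, had average log2 intensities of 7.16 to 11.9. All 4 were brighter than 6.92, the highest of a mouse probe without a fold change. This limit does not set keratinocyte markers apart. Above it were also 2 of 2 neuron, 2 of 3 muscle, 2 of 3 blood and 0 of 1 liver markers. The ratios of the keratinocyte markers were -1.03 ± 0.17 for miR-141, -0.98 ± 0.24 for miR-200c, -0.33 ± 0.24 for miR-203 and 0.089 ± 3.39 for miR-205. Those of miR-141 and miR-200c were past 1.5-fold on the opposite side.

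No family member differed between the pools by the rule of size used here, which asks for a mean of at least 1.5-fold (0.585 on the log2 scale) and for arrays of 1 sign. Of the members 0 of 13 passed, where 12.1% of the 373 mouse miRNAs did. The count was also 0 of 13 with the trend removed, where 13.4% of all passed, and 0 of 13 at 1.5-fold in the authors' deposited table, where 9.38% of all did. No test stands behind these counts, and with so few members a count of 0 beside such shares does not set the family apart. As deposited, 0 of the 4 members and 0 of the 10 other mouse miRNAs at intensities of 12 or more had 1 sign on both arrays. The demand on signs thus kept these bright probes from passing as deposited, whatever their mean. The share over all comes mostly from dimmer probes, with a median intensity of 7.16. The members close to the limit were let-7f and let-7i, the latter with arrays of opposite signs. let-7f passed on the opposite side with -0.61 when both turned arrays were centred on their medians over the 373 mouse miRNAs, 0.0053 and 0.14. The family median was 0.076, beside 0.080 for all 373 miRNAs. With the trend removed it was -0.11, beside 0.028. The median of the members' log2 fold changes in the authors' deposited table is -0.12, beside -0.018 over all.

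**Figure D1:**
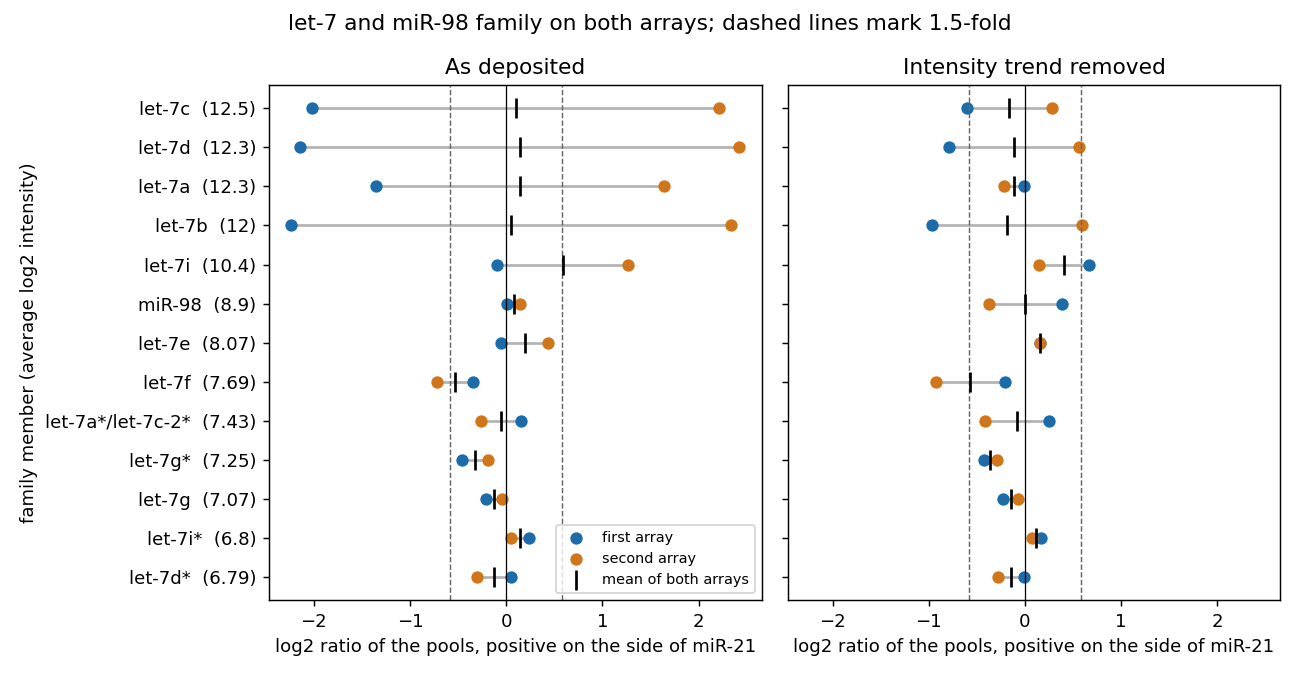
The log2 ratio of the pools for each of the 13 members on the first array (blue), the second array (orange) and as their mean (black bar), as deposited and with the intensity trend removed; members are ordered by average log2 intensity, given beside the name, and dashed lines mark 1.5-fold. As deposited, let-7a, let-7b, let-7c and let-7d lie below -1.3 on the first array and above 1.6 on the second, with means near 0.

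The 4 brightest members were let-7c, let-7a, let-7d and let-7b, with average log2 intensities of 12.5, 12.3, 12.3 and 12. Probes differ in how well they bind, so these intensities do not order the levels of the miRNAs. As deposited, each of the 4 had a large ratio of opposite sign on the turned arrays. mmu-let-7b had -2.23 and 2.33 on the first and second array, and a mean of 0.050 ± 3.23.

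mmu-let-7d had -2.14 and 2.42, with a mean of 0.14 ± 3.23. mmu-let-7c had -2.02 and 2.22, with a mean of 0.10 ± 2.99. mmu-let-7a had -1.36 and 1.64, with a mean of 0.14 ± 2.12. All 4 were thus low on the first array and high on the second, and their means, which cover only 0.050 to 0.14, lie far inside the spread between the arrays.

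Before the sign of the first array was turned, these ratios had the same sign on both arrays although the dyes were exchanged, so they mainly followed the dye. This dye part, the second turned array minus the first divided by 2, was 2.28 for let-7b and 2.28 for let-7d, at ranks 2 and 3 by size of the 373 miRNAs after miR-205. It was 2.12 for let-7c and 1.498 for let-7a, at ranks 7 and 19. The 10 mouse miRNAs outside the family with an average intensity of 12 or more showed the same order of signs, 10 of 10 negative on the first array and positive on the second, with dye parts from 1.11 to 2.15. Large dye parts were therefore shared by bright probes. The pool means of these 10 ranged from -0.62 to 0.68 and those of the 4 family members from 0.050 to 0.14, without a test of the difference in width.

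**Figure D2:**
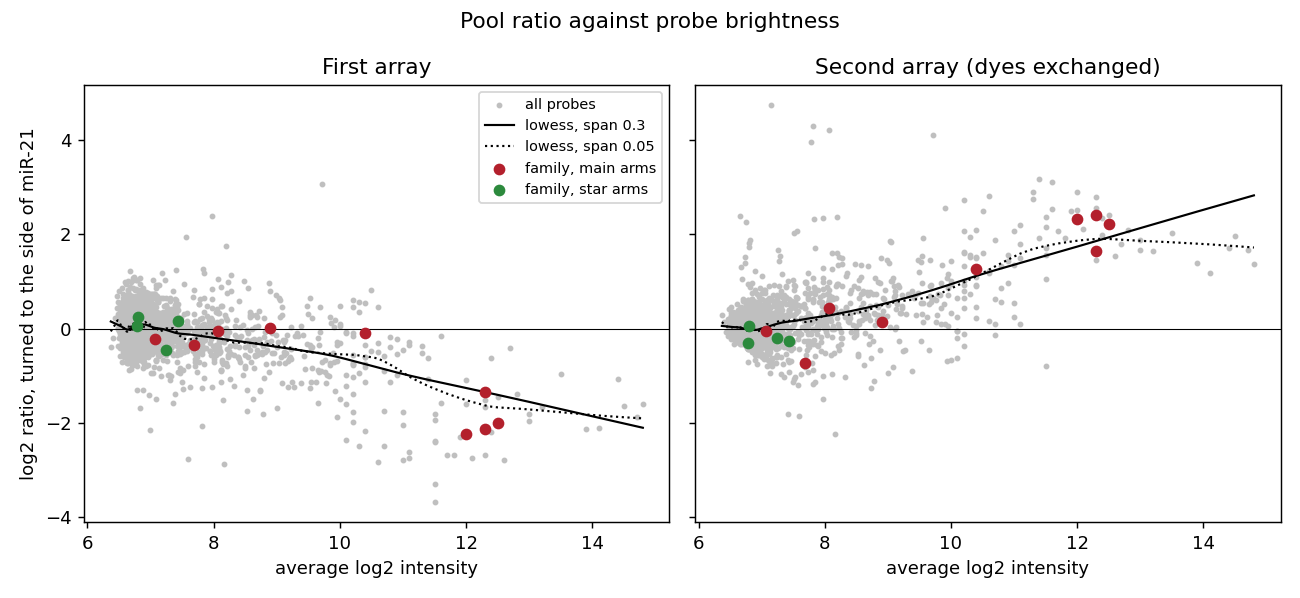
Turned log2 ratio against average log2 intensity for all 2101 probes (grey) on each array, with the main arms (red) and star arms (green) of the family and the lowess trend of span 0.3 (solid) and 0.05 (dotted). The 4 bright main arms lie in the low tail on the first array and in the high tail on the second, where the other bright probes lie too.

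With the trend removed, the arrays of the bright members lay closer. let-7a then had -0.0066 and -0.22, with a mean of -0.11 ± 0.15. let-7c had -0.61 and 0.28, with a mean of -0.16 ± 0.63. let-7b, with -0.97 and 0.59, and let-7d, with -0.79 and 0.56, still differed in sign, with means of -0.19 ± 1.11 and -0.11 ± 0.96. All 4 means were slightly negative here and slightly positive as deposited, so their sign rests on the treatment of the trend. In the authors' deposited table the log2 fold changes are -0.35 for let-7a, -0.13 for let-7b, -0.0074 for let-7d and 0.026 for let-7c. The largest of these sizes, that of let-7a, is still under 1.5-fold. Only 27 of the 2101 probes reached an average intensity of 12, so the trend is poorly fixed there. With a span of 0.05 in place of 0.3, added after seeing the data, the means were -0.12 for let-7b, -0.014 for let-7c, 0.0049 for let-7d and 0.0051 for let-7a.

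**Figure D3:**
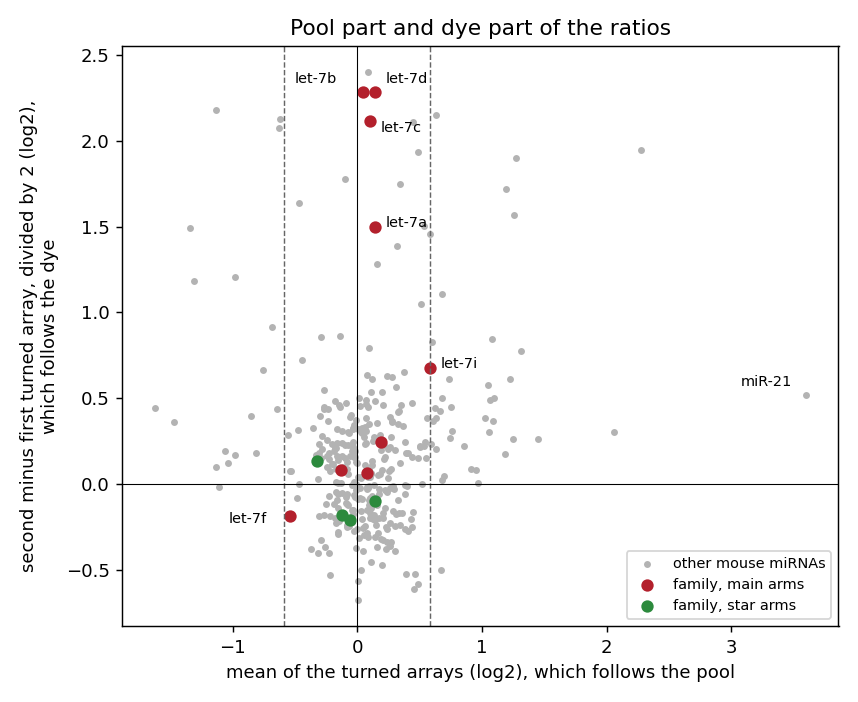
For each of the 373 mouse miRNAs, the mean of the turned arrays (horizontal, log2) against the dye part (vertical, log2), with main arms of the family in red, star arms in green, and dashed lines at 1.5-fold. let-7b, let-7d, let-7c and let-7a lie high on the dye axis at means of 0.050 to 0.14, while miR-21 lies at 3.60.

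The remaining main arms were less bright, with average log2 intensities from 7.07 to 10.4, and their arrays lay closer. let-7i, made from a gene of its own, was the highest member: mmu-let-7i read -0.091 and 1.26 on the first and second array, with a mean of 0.59 ± 0.96. This mean is just past the 1.5-fold limit, but the arrays had opposite signs, so let-7i did not pass. With the trend removed both arrays were positive, with 0.67 and 0.14, and the mean was 0.41 ± 0.37. The authors' deposited table gives let-7i a log2 fold change of 0.078.

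mmu-let-7f was the lowest member and lay on the opposite side on both arrays, with -0.35 and -0.72 and a mean of -0.54 ± 0.26, or 1.45-fold. With the trend removed it had -0.21 and -0.92, a mean of -0.57 ± 0.50, still short of the limit. The authors' deposited table gives -0.29, the same sign. let-7f and let-7i are thus the members nearest to the limit, on different sides, and let-7f was the nearest of those with one sign on both arrays.

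mmu-let-7e had -0.054 and 0.44, with a mean of 0.19 ± 0.35. With the trend removed its arrays nearly coincided, at 0.16 and 0.16, and the authors' deposited table gives 0.0050. mmu-miR-98 had 0.011 and 0.14, with a mean of 0.076 ± 0.092. For miR-98 removal of the trend drew the arrays apart, to 0.38 and -0.37, about a mean of 0.0049. mmu-let-7g, the dimmest main arm, had -0.21 and -0.048, with a mean of -0.13 ± 0.12. Its value in the authors' deposited table is -0.12.

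The star arms were dim, with average log2 intensities from 6.79 to 7.43. Those of let-7d* (6.79) and let-7i* (6.80) lie below 6.92, the highest of a mouse probe without a fold change, so like levels cannot be read from values near 0 there. The star arm lowest in the family was let-7g*, with -0.46 and -0.19 and a mean of -0.33 ± 0.19. It kept its sign on both arrays with the trend removed, at -0.43 and -0.29, and its log2 fold change in the authors' deposited table, -0.40, is the lowest there of the 13 members. Both arms of the let-7g hairpin were therefore on the opposite side on both arrays, each at less than 1.5-fold.

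let-7i* had 0.24 and 0.047, with a mean of 0.14 ± 0.14, and the authors' deposited table gives it the other sign, with -0.18. let-7d* had 0.053 and -0.30, with a mean of -0.13 ± 0.25, and it too has the other sign in the authors' deposited table, with 0.27. The joint probe of let-7a* and let-7c-2* had 0.15 and -0.26, with a mean of -0.057 ± 0.29. The star arm median was -0.091 and that of the main arms 0.10. Over the whole family 5 of 13 members had the same sign on both arrays as deposited and 8 of 13 with the trend removed, beside 45.3% and 51.7% of all 373 miRNAs. The sign of the deposited mean matched that of the authors' fold change for 6 of 13 members.

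Several let-7 genes lie close to each other or to genes of the miR-99, miR-100 and miR-125 miRNAs, and neighbours within a cluster can be made from a shared precursor. In GRCm38.p6, let-7a-1, let-7f-1 and let-7d lie together on chr13:48536012-48538272, on the minus strand. let-7c-2 and let-7b lie on chr15:85706603-85707403, within the long noncoding gene Lncppara, and let-7f-2 and miR-98 on chrX:151912346-151913321, within the span of Huwe1. let-7g lies at chr9:106178840-106178927 within Wdr82, and let-7i at chr10:122985640-122985724, with no holding gene in the RefSeq table. let-7e lies at chr17:17830352-17830444 within Spaca6, with miR-99b before it and miR-125a after it. let-7a-2 lies with miR-100 and miR-125b-1 in the noncoding gene Mir100hg on chromosome 9, and let-7c-1 next to miR-99a on chromosome 16. let-7a, let-7c and let-7f each come from more than 1 locus, so their probes read the sum of these.

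Of the 8 miRNAs measured for miR-99, miR-100 and miR-125 partners, 3 passed the rule of size, all on the side of miR-21, where 8.85% of all mouse miRNAs did. These were miR-99b, miR-100 and miR-125a-5p. With the trend removed miR-125a-5p, at 0.46 ± 0.50, did not pass. The authors' deposited table gives smaller log2 fold changes, 0.66 for miR-99b, 0.60 for miR-100 and 0.22 for miR-125a-5p, the last under 1.5-fold. These 3 are shown because they are made beside let-7 miRNAs but have seeds other than that of let-7, in capitals. miR-99b and miR-100 share the same seed.
miR-99b: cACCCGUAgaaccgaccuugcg
miR-100: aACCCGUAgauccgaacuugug
miR-125a-5p: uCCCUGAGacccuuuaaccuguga
miR-99b ends 150 bases before let-7e begins and had 0.72 and 1.46, with a mean of 1.09 ± 0.52, against 0.19 ± 0.35 for let-7e. Within each array miR-99b was above let-7e, by 0.78 on the first and 1.03 on the second, a mean difference of 0.90 ± 0.18, and of 0.86 with the trend removed. In log2 fold changes of the authors' deposited table the difference is 0.66. The ratios of the miR-99b and let-7e probes thus differed on both arrays, although the genes are neighbours. How far other let-7 members bind the let-7e probe was not tested. Between let-7e and miR-125a-5p, which begins 429 bases after it, the difference was 0.42 ± 0.17 as deposited, but with the trend removed the arrays gave 0.65 and -0.056.

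miR-100, a neighbour of let-7a-2, had 0.75 and 1.36, with a mean of 1.05 ± 0.43, and 1.01 ± 0.040 with the trend removed. let-7a had a mean of 0.14 as deposited and -0.11 with the trend removed, but its probe also reads let-7a-1. miR-125b-1 lies in the same noncoding gene but 45114 bases beyond let-7a-2, and the RefSeq table holds another copy, Mir125b-2, on chromosome 16, so the probe for miR-125b-5p may read both. miR-125b-5p had -0.53 and 2.91 and passed the rule only with the trend removed, at 0.98 ± 0.64. Its log2 fold change in the authors' deposited table is 0.43, under 1.5-fold. miR-99a, next to let-7c-1, had 0.036 ± 0.13 at a dim 6.87. The partners that passed as deposited were among the brighter ones of the list. The brightest, miR-125b-5p at 11.3, did not pass, as its arrays had opposite signs. miR-99a and the star or 3p arms did not pass either. Of the 8 partners, miR-125a-3p alone had a negative mean, at -0.37 ± 0.54.

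**Figure D4:**
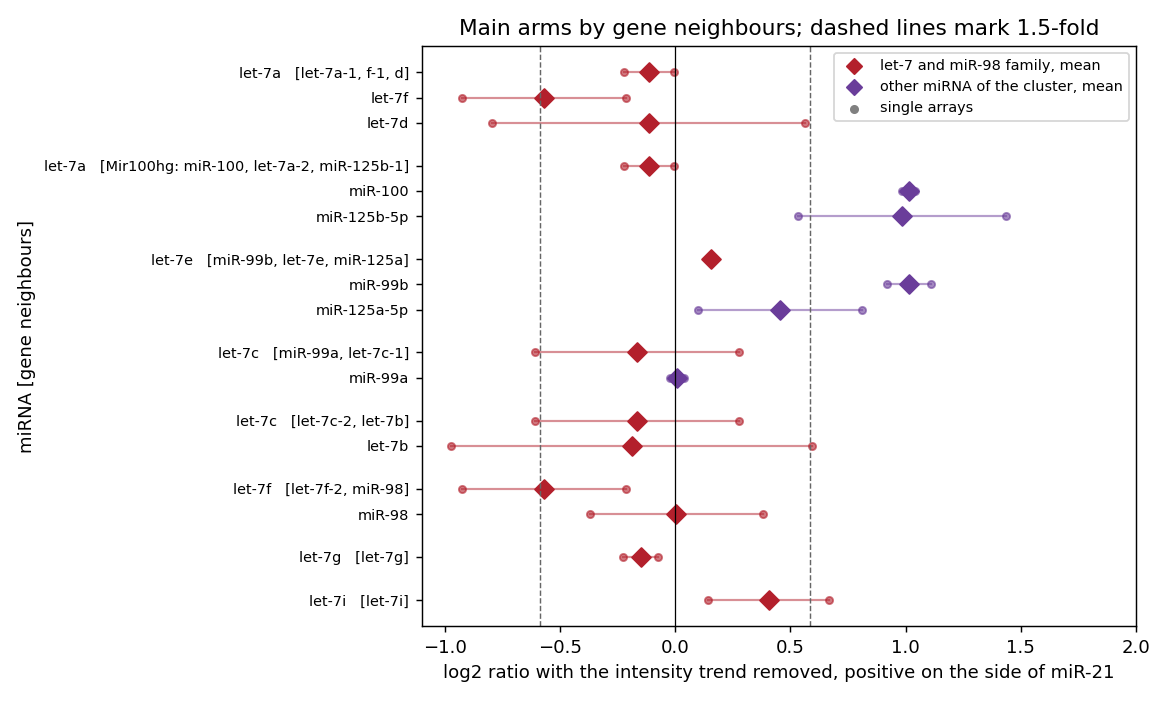
Log2 ratios with the intensity trend removed for main arms of the family (red) and their cluster neighbours (purple), grouped by neighbouring genes; diamonds are means, small points the 2 arrays, and dashed lines mark 1.5-fold. miR-100, miR-125b-5p and miR-99b lie near 1.0, and let-7e, let-7a and let-7c lie between -0.16 and 0.16; family members with more than 1 locus are drawn at each.

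Within the clusters that hold only family members, neighbours were set beside each other in the same way. let-7f and miR-98 come from neighbouring genes on the X chromosome, and miR-98 was above let-7f on both arrays, by 0.36 and 0.86 as deposited and by 0.59 and 0.55 with the trend removed. In the authors' deposited table the difference in log2 fold change is 0.17. let-7f also has a locus on chromosome 13, whose share in its probe was not tested. let-7b and let-7c, neighbours on chromosome 15, differed by less than the spread between the arrays, with 0.050 ± 0.24. let-7a and let-7d, of 1 cluster on chromosome 13, both had a mean of 0.14, with a technical SD of 1.11 for their difference. let-7f minus let-7a, of the same cluster, was -0.68 ± 2.38 as deposited. With the trend removed it was -0.21 and -0.70 on the first and second array, and in the authors' deposited table it is 0.062.

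The miRNAs whose pair of array values, trend removed, lay nearest to the median pair of the 9 main arms (-0.21 and 0.14) were miR-697, miR-488* and miR-434-3p, at Euclidean distances of 0.012, 0.029 and 0.039. This likeness rests on 2 values from 1 pair of pools, and these miRNAs had average log2 intensities of only 6.79, 6.79 and 7.54. Among markers of embryonic stem cells, where let-7 is kept low, 3 of 4 listed miRNAs were on the array, with average log2 intensities of 6.73 to 6.99. Their means ran from -0.20 to 0.22. Of the fibroblast and smooth muscle markers, miR-143 had 2.06 ± 0.43, on the side opposite to the keratinocyte markers miR-141 and miR-200c. miR-214 had 0.11 ± 0.76, and miR-145 had 0.24 ± 0.067 at an intensity of 6.83, below the 6.92 of probes without a fold change. The blood markers ran from -0.084 to 0.58, the highest being miR-223 with 0.58 ± 2.06. The neuron, muscle and liver markers ran from -0.10 to 0.20. Of the blood, muscle and liver markers, miR-451, miR-133a and miR-122 were also below 6.92. The other blood and muscle markers and the neuron markers were above it. The part of other cells in the values of the let-7 family was not tested.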

How the data were processed

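The authors deposited a value table with 1 log2 dye ratio per array for 2244 features; for its log base, centring and dye order no source was found, so they are unknown here. A log2 scale was taken: the mean of both turned arrays tracked the fold change deposited by the authors, on the log2 scale, with r = 0.83 over 1677 probes, and at average intensities of 9 to 12 with r = 0.98 and a slope of 1.24 over 155, where natural logs would give 0.693. Sizes in both tables still differ for single miRNAs. The column medians were 0.039 and 0.040. The other table gives average log2 intensity and log2 fold change per probe, per the file headers. It also holds a signed fold change, treated as a score, and p-values that the authors deposited without naming their replicates, which were not used. The normalization is not given in the sources used here. Per the labels, RNA was extracted with Trizol and cleaned on a column.

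The sign of the first array was turned, both arrays were averaged, and 376 mouse probes were reduced to 373 miRNAs by averaging. The trend was a lowess on average intensity with span 0.3 over 2101 probes. Named are all members, their cluster partners, miR-21, the listed markers, miRNAs with the same seed and the 3 nearest. miR-205 at its rank and the limit of 12 for bright probes were chosen after the values were seen. The members and lists were chosen with earlier results of these data known. Alternatives were other thresholds, centring, single arrays, the authors' table, dim probes, brighter miRNAs and no demand on signs. Python 3.11.15, statsmodels 0.14.6, pandas 2.3.3, NumPy 2.4.6 and matplotlib 3.10.9 were used.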

Additional observations from a re-analysis of the deposited data

How the results depend on the processing

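The count of 0 members past the rule held with the trend removed at spans of 0.3 and 0.05 and in the authors' deposited table. It was also 0 with dim probes, among brighter miRNAs and at 2-fold, but these settings could not raise it. All 13 members were already counted, the brighter miRNAs are a part of those counted, and 2-fold is stricter than 1.5-fold. The count was 1 with median-centred arrays (let-7f), 1 without the demand on signs (let-7i) and 2 at 1.2-fold (let-7f and let-7g*). On the second array alone it was 6 and on the first alone 4, among them let-7a, let-7b, let-7c and let-7d on both, with opposite signs. Over all 373 mouse miRNAs the count of 45 stayed at 45 with median-centred arrays and was 58 without the demand on signs. This count over all became 99 at 1.2-fold and 22 at 2-fold. It was 104 on the second array alone and 85 on the first alone. The family median ran from -0.21 to 0.14 on single arrays, that of the main arms from -0.35 to 1.26 and that of the star arms from -0.23 to 0.10. Removal of the trend at a span of 0.3 kept the sign of 9 of 13 member means and at 0.05 of 11. By the authors' deposited values, 3 of 13 members (miR-98, let-7i* and let-7d*) lay more than the technical SD from the mean. This SD was 2.12 to 3.23 in the 4 brightest members, so the count says little of them. Not counted were let-7a, with a mean of 0.14 and an authors' value of -0.35, and let-7i, with 0.59 and 0.078. No paired analysis was possible because the arrays share 1 pair of pools. Low signal over background limits the star arms and let-7g, and the dye dependence limits the brightest members. Within this, small differences between the pools could not be detected. For let-7a, let-7b, let-7c and let-7d, with dye parts of 1.498 to 2.28, larger differences could be missed as well. Among the partners, miR-125b-5p had a mean of 1.19 and did not pass the rule as deposited.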
